A study of Danio rerio with 1324 samples.

Results

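Beta-cells of zebrafish at 4 months post-fertilization (mpf) were compared with beta-cells at 6 mpf, both of which belong to the 'Adolescent' stage. The comparison took the 88 cells at 4 mpf and the 90 cells at 6 mpf, out of the 637 single-cell transcriptomes that hold the 7 ages of the training set, and the 6 mpf cells were kept as 2 batches of 39 cells (batch 1) and 51 cells (batch 2, named 'New'). Genes were sought for which 4 mpf differed from both 6 mpf batches. The cells were chosen by age and batch name alone, and no measured value entered the choice.

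All animals carried Tg(ins:Betabow), labelled Tg(ins:BB1.0L), in which the insulin promoter drives red fluorescence, and all were under normal feeding. Beta-cells were isolated from dissected islets by fluorescence-activated cell sorting, 1 cell per library, from a pool of 6 fish per batch. The tables held 88 of 93 labelled training cells at 4 mpf and the 90 cells at 6 mpf, where 95 further labelled cells were not analysed here. By the study's sample list part of the 6 mpf cells was collected on the same occasion as the 4 mpf cells and part on another, but the columns do not name the occasion of either 6 mpf batch, so that age and collection cannot be told apart. Cells of a batch share their fish and were not taken as replicates. A second batch of 4 mpf fish under normal feeding, 46 cells of 55 labelled, was present only as TPM in a table made separately, and was used as a further 4 mpf sample wherever it is named. Its columns repeat 44 names of the first batch, and 0 of these columns hold the same values.

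Beta-cells make insulin as a precursor, cut it with prohormone convertases in the secretory granule, and release it when glucose is metabolised and the ATP-sensitive potassium channel closes. The load of secreted protein makes them dependent on chaperones, on the unfolded protein response of the endoplasmic reticulum (ER) and on thiol-based antioxidants such as peroxiredoxins, since islets are poor in catalase and glutathione peroxidase. In mammals, maturation after birth brings a fall in beta-cell replication and a rise of maturity markers such as urocortin 3.

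The reads counted on genes came to a median of 274026 per cell at 4 mpf, 298280 in 6 mpf batch 1 and 288586 in batch 2, and 24138166, 10921521 and 16293829 in all, so that a count of 0 allows up to 3 reads, or 0.114, 0.274 and 0.173 counts per 1000000 reads (CPM). The intervals and this floor cover counting error only. Cells under 100000 reads numbered 1 at 4 mpf, 7 in batch 1 and 0 in batch 2. The insulin gene ins took a median of 36.4%, 39.03% and 41.7% of the reads of a cell, and its level in the summed reads was not called different. Of the other beta-cell markers pdx1 stood at 1488, 2887 and 2106 CPM and mnx1 at 66.8, 103.95 and 118.98 CPM, in the order 4 mpf, batch 1, batch 2. That order is kept for all values below. Not every marker stood lower at 4 mpf. Without the cells low in ins described below, in CPM without scaling between batches, neurod1 stood at 479, 338 and 676 CPM. In the same cells nkx6.1 stood at 6.76, 6.13 and 5.95 CPM. Of the 7 beta-cell markers tested over all cells, 1 lay at least 2-fold above both 6 mpf batches (pcsk1) and 1 below (ucn3l).

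The sort did not hold beta-cells alone. Under 10% of reads on ins were found in 8 of the 88 cells at 4 mpf, in 0 cells of batch 1 and in 2 cells of batch 2. Of the 8, 4 gave 25.1% to 40.4% of their reads to gcga (preproglucagon, of alpha-cells), 2 gave 36.4% each to sst2 (somatostatin, of delta-cells), 1 gave 17.03% to gcga and 9.52% to sst2, and 1 had tmsb4x and cd74a, genes abundant in leukocytes, among its leading genes. The 4 alpha-cell markers tested summed to 22055, 2064 and 4907 CPM, the 4 delta-cell markers to 12265, 10729 and 49916 CPM, and 6 leukocyte markers to 442, 6.21 and 86.9 CPM. Without the cells under 10% ins, in CPM without scaling between batches, these sums were 2112, 2069 and 5365 CPM, 376, 10754 and 48606 CPM, and 125.5, 6.23 and 84.3 CPM. The last sum was cd74a alone at 4 mpf and in batch 2, while cd74a stood at 1.28 CPM in batch 1. Over all cells cd74a likewise made up most of the leukocyte sum at 4 mpf and all of it in batch 2. Of 13 acinar markers 3 had a read in all 3 batches, and the 13 summed to 3.76, 10.6 and 12.8 CPM, with ela3l and PTF1A at 0 in all 3. Values without these cells are therefore also given for the glucagon, somatostatin, ghrelin and immune genes named below.

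Among the genes called higher at 4 mpf, the antioxidant gene prdx1, the reductase cbr1l and the immediate-early gene egr1 were read in most cells of the first 4 mpf batch and in few cells at 6 mpf. Among those called lower, ZBTB16, mtss1la, fam107b, cebpd and the maturity marker ucn3l were nearly missing in the first 4 mpf batch and present in both 6 mpf batches. The second 4 mpf batch differed from the first in several of these, with prdx1 read in 2, ucn3l in 19 and mtss1la in 24 of 46 cells. Reads were summed over the cells of each batch and compared by edgeR's quasi-likelihood test over the 9 batches of the 7 ages. As 4 mpf has 1 batch in the count table, its spread was assumed to be that of the ages with 2 batches. Of 18726 genes tested, 75 (0.401%) were called at an adjusted p under 0.05, 21 (0.112%) higher and 54 (0.288%) lower at 4 mpf, and 689 (3.68%) had an unadjusted p under 0.05. All 21 of the higher and 46 of the 54 lower calls lay outside both 6 mpf batches by at least 2-fold. The count of calls was 42 without 6 mpf batch 2, with 29 of the 75 among them, and 78 without batch 1, with 49 of the 75. It was 9 with only the 3 batches of the ages compared, 37 with each gene capped at its second-highest cell, an alternative chosen after seeing the data, and 253 with DESeq2, with 9, 29 and 59 of the 75 among them. The 9 were prdx1, cbr1l, zgc:198419, sorbs3, mhc2dab, ZBTB16, FAM43B, fam107b and mtss1la, so that egr1, ucn3l, cebpd and all other calls were lost there. Under every alternative 5 of the 75 were called.

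As a rule of size with no test, a gene was taken as outside when its 4 mpf level lay at least 2-fold above, or at least 2-fold below, both 6 mpf batches. This held for 2503 genes above (13.4%) and 1860 below (9.93%). For 2000 (10.7%) and 1583 (8.45%) the distance also exceeded that between the 2 6 mpf batches. Of these, 424 (2.26%) and 556 (2.97%) had at least 10 CPM at the higher age, and 230 (1.23%) and 276 (1.47%) also had a read in at least 20% of its cells at 100000 reads per cell. The 2 6 mpf batches themselves differed by 2-fold or more in 8631 genes (46.1%).

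**Figure D1:**
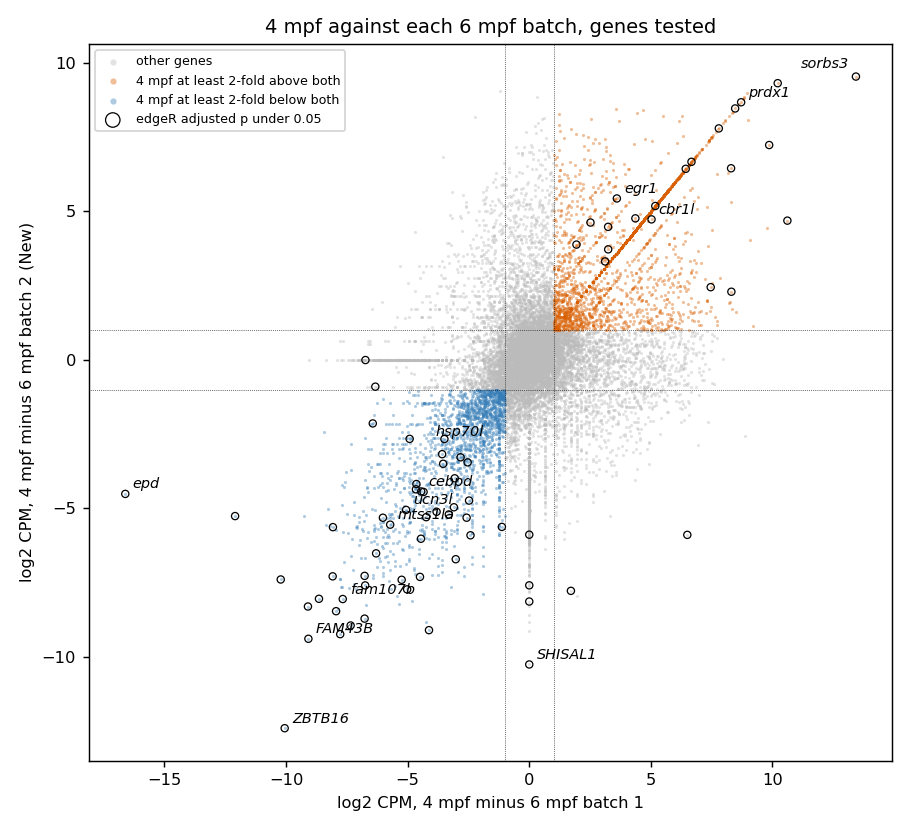
Each point is 1 of the 18726 genes tested, placed by its log2 CPM at 4 mpf minus 6 mpf batch 1 (horizontal) and minus batch 2 (vertical); orange and blue genes lie at least 2-fold outside both batches and circles mark the 75 edgeR calls. The gene prdx1 sits far above both batches and ZBTB16, fam107b and FAM43B far below both, while epd and SHISAL1 differ mainly from 1 batch.

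The gene prdx1 encodes peroxiredoxin 1, a thiol enzyme that breaks down hydrogen peroxide. It stood at 640 CPM at 4 mpf (16850 reads, 95% exact Poisson interval 631 to 650 CPM) against 1.46 and 1.502 CPM in the 6 mpf batches. Its log2 fold change was 8.75 ± 0.88 (SE; edgeR adjusted p = 1.94e-15), and it was 1 of 5 genes called under every alternative of the count test. Reads were present in 73 of 88 cells at 4 mpf (82.95%, exact interval 73.5% to 90.1%), with a median of 326 TPM and a highest of 14900 TPM, but in 2 of 39 and 1 of 51 cells at 6 mpf. Most 4 mpf cells thus lay above nearly every 6 mpf cell. In the second 4 mpf batch prdx1 averaged 2.10 TPM, with a read in 2 of 46 cells, against 565 TPM in the first. Among the other ages it ranged from 0 to 153.3 CPM, with the highest level in the second 3 mpf batch.

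Several further genes of thiol and xenobiotic defence stood above both 6 mpf batches with it. The carbonyl reductase cbr1l was called higher (168.9 against 5.12 and 6.30 CPM; log2 fold change 4.89 ± 0.92 SE, edgeR adjusted p = 0.00023), with a read in 69 of 88 cells against 4 of 39 and 3 of 51. It averaged 8.27 TPM in the second 4 mpf batch, against 105.4 TPM in the first and 2.43 and 3.32 TPM at 6 mpf. Of 33 antioxidant and redox genes listed, 31 were tested, 8 lay above both 6 mpf batches and 1 below, against 13.4% and 9.93% of all genes. The list was chosen with earlier results of these data known, and its share was not tested. Among the 8, gstp1 (glutathione S-transferase) stood at 989, 300.2 and 170 CPM, and gclc, the catalytic subunit of the rate-limiting enzyme of glutathione synthesis, at 204.5, 23.02 and 60.9 CPM. Its modifier subunit gclm stood at 37.99, 14.2 and 13.7 CPM, and GSR, glutathione reductase, at 56.003, 5.75 and 0.809 CPM. Of the 8 only prdx1 passed the edgeR test, the adjusted p of gstp1, gclc and GSR being 0.261, 0.179 and 0.132. The median of the 31 genes was 0.31 and 0.63 above the 6 mpf batches on the log2 scale, against 0 over all genes tested. Of the 31, 28 had a read in all 3 batches, against about 11970 of all 18726 genes, so the 2 medians are not of equally well read genes. The shift was not particular to redox genes. Medians of like size were found for 24 V-ATPase genes (0.33 and 0.81) and 12 prohormone-processing genes (0.21 and 0.83), while those of other lists lay near or below 0. Levels of superoxide dismutase sod1 (172.6, 139.3 and 111.9 CPM), catalase (cat; 206, 163.9 and 134.8 CPM) and prdx2 (49.4, 37.7 and 59.8 CPM) lay within 2-fold of at least 1 batch. The gene nfe2l2a, whose protein Nrf2 drives many antioxidant genes, stood at 85.9, 129.4 and 132.03 CPM.

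With the second 4 mpf batch, 23 of these redox genes could be compared as log2(TPM + 1). The first batch lay at least 1 above both 6 mpf batches in 4 of them and the second in 0, against 5.31% and 4.27% of all genes. In the second batch gstp1 averaged 261 TPM, between the 6 mpf batches at 297 and 175.1 TPM, and gclc 8.08 TPM, below both. Without the cells under 10% ins, 10 of the 31 lay above in counts, against 12.2% of all genes. In CPM without scaling between batches, prdx1 then stood at 646 against 1.47 and 1.64 CPM.

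**Figure D2:**
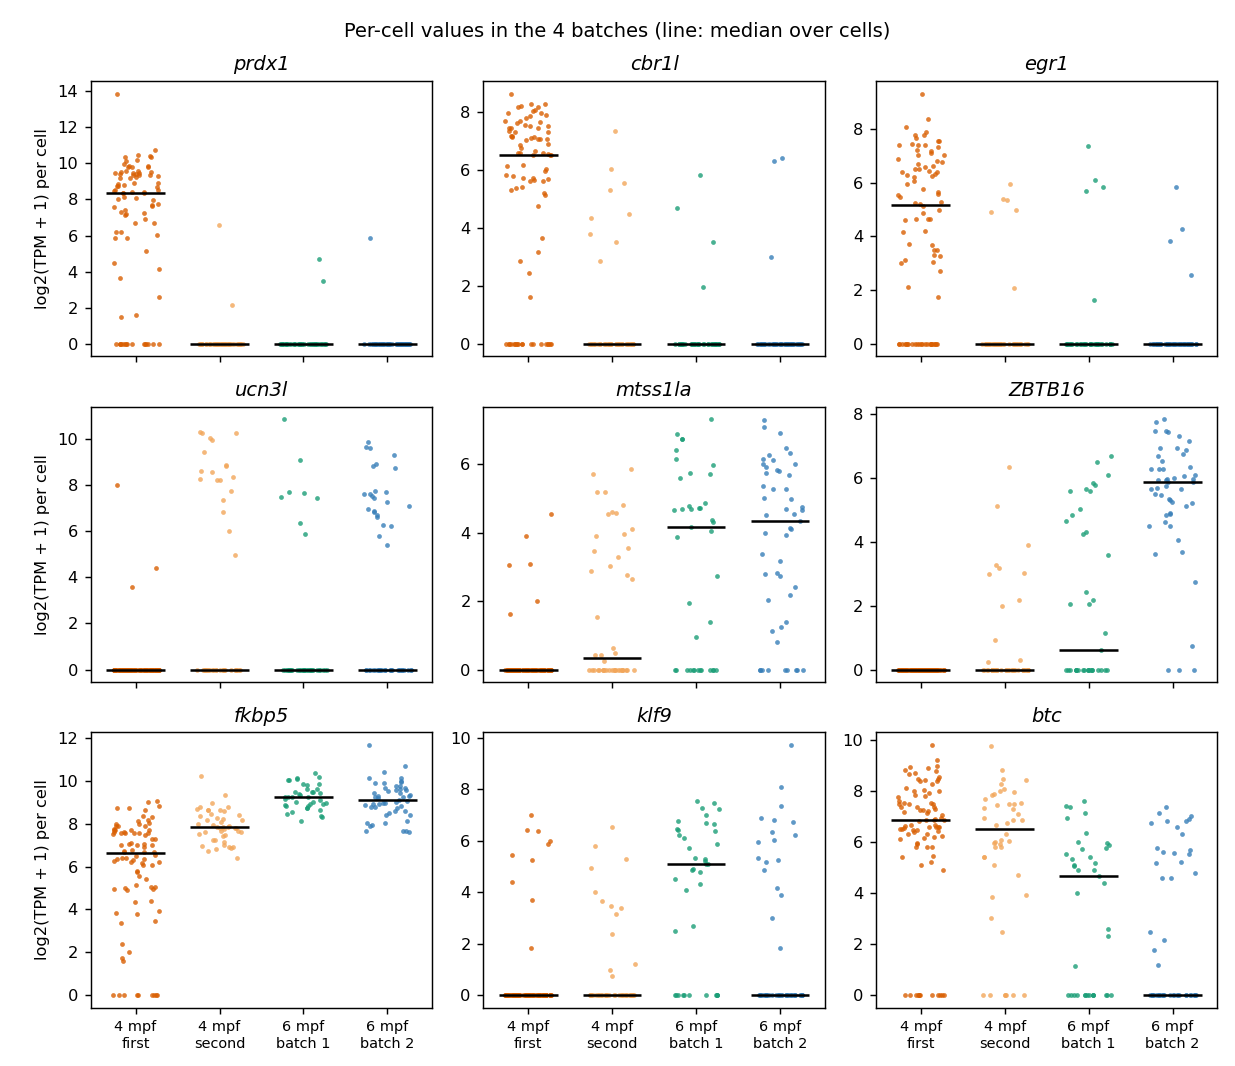
Each point is 1 cell, with its log2(TPM + 1) on the vertical axis and the 4 batches on the horizontal axis; the line is the median over cells. For prdx1, cbr1l and egr1 the first 4 mpf batch stands apart from the other 3 batches, for ucn3l it alone is nearly empty, and for fkbp5 and btc the medians of both 4 mpf batches lie on the same side of both 6 mpf batches. For klf9 the median is 0 in every batch but 6 mpf batch 1.

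The immediate-early gene egr1, a transcription factor switched on within minutes by stimulation, was called higher at 4 mpf (230 against 18.9 and 5.26 CPM; log2 fold change 4.26 ± 0.79 SE, edgeR adjusted p = 0.00018). It had a read in 65 of 88 cells against 5 of 39 and 4 of 51. In TPM 2 of 17 immediate-early genes lay above both 6 mpf batches in the first 4 mpf batch and 0 in the second, against 5.31% and 4.27% of all genes. Of 33 immediate-early genes listed, 32 were tested in counts, 6 lay above both 6 mpf batches and 0 below, against 13.4% and 9.93% of all genes. The 6 include IER2 (61.2, 20.6 and 16.6 CPM) and EGR4 (377.2, 156.2 and 59.199 CPM), neither of which passed the test, and EGR3, NR4A2 and KLF4 at under 6 CPM. The AP-1 subunit gene junba (24.7, 32.1 and 34.7 CPM) and both genes that carry the name fosab (1016, 783 and 822 CPM, and 2.74, 1.92 and 4.68 CPM) lay within 2-fold of a 6 mpf batch and did not pass the test. The averages of the second 4 mpf batch were 4.44 TPM for egr1 and, for IER2, 13.7 TPM, against 69.9 and 87.5 TPM in the first. Capital symbols such as IER2 come from a table of names in which they do not tell zebrafish copies of a gene apart.

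Other genes of the higher group with a read in most 4 mpf cells carry only clone names. The gene zgc:92066 stood at 1350, 155.5 and 135.4 CPM (edgeR adjusted p = 0.00282), zgc:109934 at 167.7, 17.6 and 12.7 CPM (adjusted p = 0.00476) and zgc:198419 at 157.3, 7.58 and 5.72 CPM (adjusted p = 0.000416). They had a read in 87, 85 and 84 of the 88 cells. Their second 4 mpf averages were 110.8, 9.24 and 14.8 TPM, against 940.5, 54.99 and 202.7 TPM in the first and at most 86.1, 4.21 and 8.31 TPM at 6 mpf. All 3 exceeded every one of the 6 batches of other ages in the first 4 mpf batch.

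Prohormone convertase 1 (pcsk1), which makes the first cut in proinsulin, stood at 2475, 629 and 434 CPM, 3.93-fold above the nearer batch, and was read in 88 of 88, 39 of 39 and 50 of 51 cells. It did not pass the edgeR test (adjusted p = 0.303). Carboxypeptidase E (cpe), which trims the cut ends, was at 3964, 1882 and 1950 CPM, while pcsk2 was at 731, 973 and 507 CPM and scg3, a granule protein, at 9963, 8195 and 6776 CPM. Of 12 prohormone-processing genes tested 2 lay above both batches and 0 below, a share near the 13.4% of all genes. Both pcsk1, at 321 TPM, and cpe, at 407 TPM, stood in the second 4 mpf batch above the 6 mpf batches (216 and 150.6 TPM, 251 and 273 TPM).

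The maturity marker ucn3l, the zebrafish urocortin 3 gene, was called lower at 4 mpf. It stood at 1.71 CPM against 59.5 and 58.7 CPM (log2 fold change -5.11 ± 0.92 SE, edgeR adjusted p = 9.18e-05), and a read was present in 3 of 88 cells (3.41%, exact interval 0.709% to 9.64%) against 8 of 39 (20.5%) and 24 of 51 (47.1%). A single cell held 63.7% of the reads in 6 mpf batch 1. All 6 batches of the other ages exceeded the first 4 mpf batch, with a range from 20.6 to 573 CPM. The second 4 mpf batch was unlike the first, with a mean of 215 TPM and a read in 19 of 46 cells (41.3%), against 3.25 TPM in the first and 84.4 and 132.1 TPM at 6 mpf. Of 20 genes tested for beta-cell identity, a list that leaves out ucn3l, none passed the edgeR test. As 0.401% of all genes passed it, a list of this size cannot show whether beta-cell identity was unchanged.

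The lower group was led by ZBTB16, a zinc-finger transcriptional repressor. It had 0 reads at 4 mpf, 70.97 CPM in batch 1 and 360 CPM in batch 2, at least 623-fold lower than the nearer batch against the floor of 3 reads (edgeR adjusted p = 2.08e-13). It was read in 0 of 88 cells (exact upper limit 4.11%), 20 of 39 and 48 of 51 cells. The gene fam107b (0.38, 90.8 and 118.1 CPM; adjusted p = 3.19e-05) was 239-fold lower than the nearer batch, and mtss1la, related to an actin and membrane-bending regulator (3.27, 175.4 and 155.5 CPM; adjusted p = 3.19e-05), 47.6-fold lower. FAM43B, with 0 reads at 4 mpf against 36.1 and 44.6 CPM (adjusted p = 2.98e-10), was at least 317-fold lower, but was read in only 8 of 39 and 7 of 51 cells at 6 mpf. These 4 genes and prdx1 are the 5 that were called under every alternative of the count test. In the second 4 mpf batch ZBTB16, fam107b and mtss1la averaged 3.62, 8.81 and 8.24 TPM, below both 6 mpf batches (16.98 and 68.02, 31.6 and 94.4, 29.05 and 31.8 TPM). FAM43B, at 14.9 TPM, lay between them at 9.54 and 25.9 TPM.

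The transcription factor gene cebpd, a CCAAT/enhancer-binding protein of acute-phase responses, stood at 4.56, 100.6 and 99.5 CPM (log2 fold change -4.45 ± 0.92 SE, edgeR adjusted p = 0.00166) and was read in 4 of 88, 23 of 39 and 20 of 51 cells. The 2 6 mpf batches differed by 0.016 on the log2 scale, but a single cell held 40.9% of the reads in batch 2. The highest cell held 15.6% in batch 1 and 32.5% at 4 mpf. Its level in the second 4 mpf batch, 31.8 TPM, lay below both 6 mpf batches at 78.3 TPM each, while the first had 3.21 TPM. The kinase gene eef2k, whose product slows translation elongation, stood at 43.5, 336 and 349 CPM (adjusted p = 0.0554) and missed the threshold. Without the cells under 10% ins its adjusted p was 0.0377.

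Other calls in the lower group were MKNK2, a kinase of the initiation factor eIF4E, at 0.076, 15.2 and 27.4 CPM (adjusted p = 0.0229), pcnx2 at 0.456, 41.01 and 47.6 CPM (adjusted p = 0.0222), ccdc125 at 1.14, 78.1 and 47.8 CPM (adjusted p = 0.000356) and the mitochondrial carrier slc25a25a at 0, 16.4 and 23.4 CPM (adjusted p = 0.000131). NOTCH1, at 0.19, 22.3 and 38.5 CPM, had an adjusted p of 0.0762. The calls epd and olfm4.2 differ from batch 1 for the most part. The gene epd, for an ependymin-type secreted protein, stood at 0.38, 44630 and 10.1 CPM with 48.4% of the batch 1 reads from 1 cell, and averaged 7259 TPM in the second 4 mpf batch. SHISAL1, at 0, 0 and 81.2 CPM, does not lie outside both, and averaged 20.6 TPM in the second 4 mpf batch.

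Genes of the insulin pathway were among those below both batches without passing the test. Of 33 tested, 7 lay below and 5 above, against 9.93% and 13.4% of all genes. A copy of IRS2, an insulin receptor substrate, stood at 3.27, 24.02 and 25.7 CPM, and foxo3b, a forkhead factor that insulin signalling shuts out of the nucleus, at 2.43, 46.1 and 45.0 CPM (adjusted p = 0.429), with 87.5% of its 4 mpf reads in 1 cell. In the second 4 mpf batch IRS2 averaged 1.84 TPM against 5.97 and 7.40 TPM at 6 mpf, and foxo3b 3.63 against 7.61 and 9.64 TPM. The sulphonylurea receptor gene abcc8, a subunit of the ATP-sensitive potassium channel, stood at 64.9, 168.9 and 218 CPM, but at 28.4 TPM in the second 4 mpf batch it lay between the 6 mpf batches at 26.7 and 34.1 TPM. Glucokinase (gck) was at 540, 428 and 653 CPM, between the 6 mpf batches.

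Several inducible heat-shock genes stood below both 6 mpf batches in the first 4 mpf batch. Of 22 listed, 20 were tested, 8 lay below and 0 above, against 9.93% and 13.4% of all genes, and the median of the 20 was -1.33 and -0.72 on the log2 scale against 0 over all genes. A read in all 3 batches was present for 19 of the 20, against about 11970 of all 18726 genes. None passed the edgeR test. The inducible chaperone gene hsp70l stood at 836, 14854 and 5600 CPM (adjusted p = 0.452), hsp70.1 at 154.1, 1256 and 840 CPM, hsp70.3 at 543, 1922 and 1770 CPM and hsp90aa1.2 at 685, 3211 and 1877 CPM. The constitutive chaperones hspa8 (1776, 1243 and 977 CPM) and hsp90ab1 (1685, 1579 and 1292 CPM) did not lie below. Reads may be split among the near-identical hsp70 copies and among the hsp90aa1 copies.

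In the second 4 mpf batch most heat-shock genes stood near their 6 mpf level. Of 17 heat-shock genes in the TPM comparison, the first 4 mpf batch lay at least 1 below both 6 mpf batches in 6 and the second in 1, against 5.44% and 7.26% of all genes, and the second lay above both in 1. In TPM hsp70l stood at 381 in the first and 2089 in the second 4 mpf batch, against 5430 and 2606 at 6 mpf, and hsp70.3 at 255 and 842 against 686 and 763. The ER chaperone hspa5 (BiP), which holds newly made proteins in the ER, stood at 191.4, 1082 and 537 CPM, and at 390 TPM in the second 4 mpf batch against 83.9 TPM in the first and 384 and 222 TPM at 6 mpf. Of 35 ER-stress genes tested 3 lay below both (hspa5, hsp90b1 and the phosphatase regulator ppp1r15a) and 1 above (ern1, 6.46, 0.274 and 0.231 CPM), against 9.93% and 13.4% of all genes. In the TPM comparison 3 of 29 lay below and 0 above in the first 4 mpf batch, against 5.44% and 5.31% of all genes. In the second, 0 lay below and 6 above, against 7.26% and 4.27% of all genes.

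**Figure D3:**
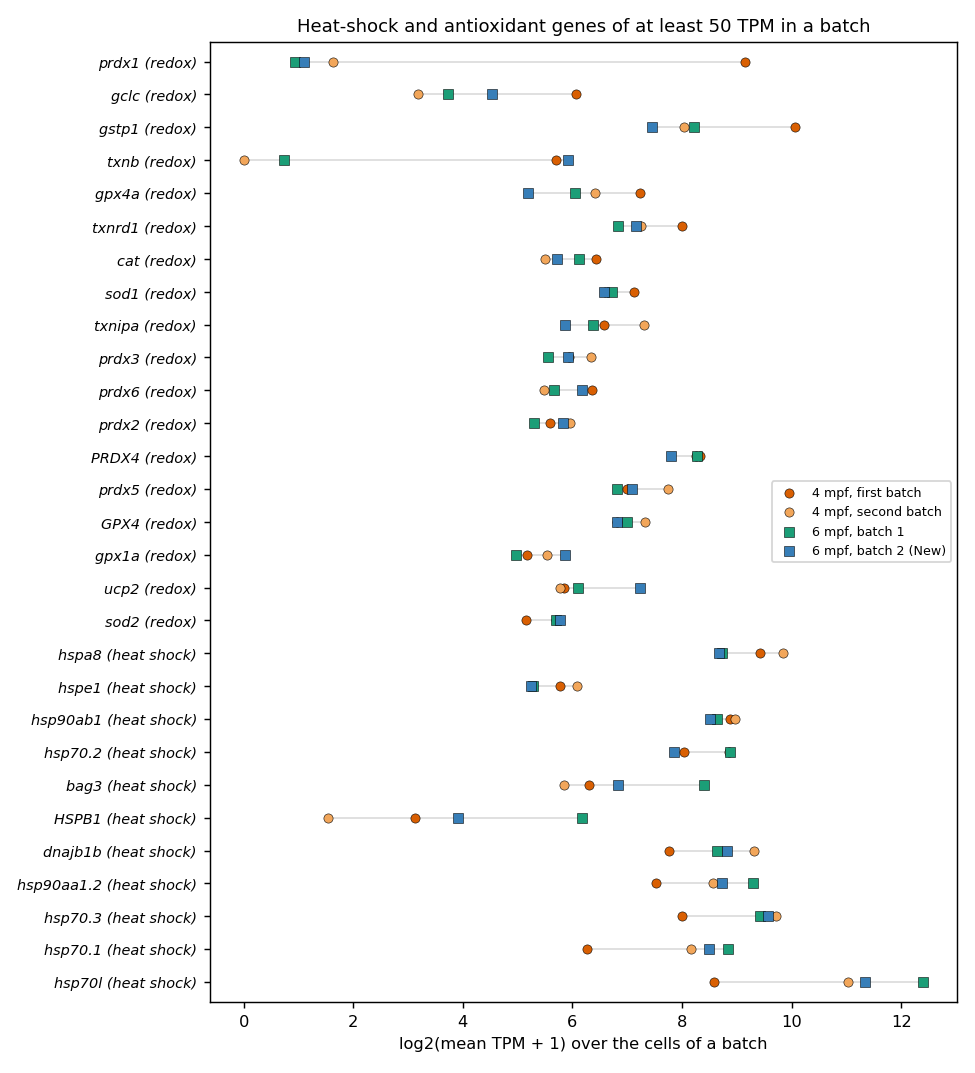
Heat-shock and antioxidant genes with at least 50 TPM in 1 of the 4 batches, with log2(mean TPM + 1) over the cells of a batch on the horizontal axis. The first 4 mpf batch (dark orange) lies at the right end for prdx1, gclc and gstp1 and at the left end for hsp70l, hsp70.1, hsp70.3, hsp90aa1.2 and dnajb1b, while the second 4 mpf batch (light orange) lies near the 6 mpf batches (squares) for most of them.

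For sst2, sst1.2, ghrl and gcgb the direction turned with the cells included, while sst1.1 stood low at 4 mpf either way. Over all cells gcga stood at 15313, 704 and 3128 CPM, sst2 at 8227, 1759 and 484 CPM and ghrl (ghrelin) at 214, 22.6 and 9.53 CPM, the last called higher at 4 mpf (edgeR adjusted p = 0.00127). The gene sst1.2 also stood above both 6 mpf batches there, by under 2-fold. It took up to 16.3% of the reads of a 4 mpf cell under 10% ins. Without the cells under 10% ins, in CPM without scaling between batches, gcga was at 1063, 706 and 3424 CPM, between the 6 mpf batches. There gcgb, a second preproglucagon gene, was at 186.6, 386 and 1391 CPM, below both. In the same cells sst2 stood at 14.5 against 1763 and 530 CPM (edgeR adjusted p = 5.64e-07), sst1.2 at 9.51 against 2182 and 1955 CPM (adjusted p = 6.36e-09) and ghrl at 0.405 against 22.6 and 10.4 CPM (adjusted p = 0.0377), and all 3 were called lower. The 10% limit was chosen after the data were seen and left out 8, 0 and 2 cells. At 6 mpf 92.7% and 95.6% of the sst2 reads came from 1 cell of each batch, as did 61.1% and 72.7% of the ghrl reads. The gene sst1.1 was called lower in both, at 302, 6792 and 47611 CPM over all cells (adjusted p = 0.0471) and at 352, 6808 and 46115 CPM without those cells (adjusted p = 0.018). A single cell held 66.9% of its reads in 6 mpf batch 1, and the call was lost without either 6 mpf batch (adjusted p = 1 for both), with only the 3 batches of the ages compared (0.13) and with each gene capped at its second-highest cell (0.417). It averaged 31.03 TPM in the second 4 mpf batch. Of 19 hormone and granule genes tested 5 lay above and 3 below both batches, against 13.4% and 9.93% of all genes, and 1 above and 8 below without those cells, against 12.2% and 10.8%.

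Some of the higher calls rest on few cells. Of the 21, 7 had over 50% of their 4 mpf reads from 1 cell and 12 had a read in under 20% of the 4 mpf cells at 100000 reads per cell. Several immune genes belong here. The class II chain gene mhc2dab (79.3, 0 and 0.058 CPM) had 92.8% of its reads in 1 cell, cd74a, the class II invariant chain (427, 1.28 and 86.9 CPM), had 75.2%, and cd83 was read in 1 cell alone. With the cells under 10% ins left out, mhc2dab still stood above both 6 mpf batches, at 6.80, 0 and 0.063 CPM without scaling between batches. In the same cells cd83 had 0 reads in every batch. Without the cells under 10% ins, in CPM without scaling between batches, cd74a stood at 125.5, 1.28 and 84.3 CPM (edgeR adjusted p = 0.913). Of 39 cell-cycle genes tested 20 lay above both 6 mpf batches and 1 below, against 13.4% and 9.93% of all genes, but TOP2A, CDK1, CCNB1 and mki67 drew 85.3% to 94.2% of their reads from 1 cell and were read in 3 or 4 cells of 88. None of the 39 passed the edgeR test.

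The gene sorbs3, an adaptor of cell adhesion sites, was called higher with 737 CPM at 4 mpf against 0 and 0.924 CPM (edgeR adjusted p = 2.65e-18), yet its reads lay in 16 of 88 cells. The other 72 cells had none. At 10 mpf it was read in 92 of 92 cells, at 4360 CPM, and in the other 5 batches of other ages it ranged from 0 to 0.386 CPM. The call pdlim2, a PDZ and LIM domain gene, was read in 7 of the same 16 cells and in 0 of the other 72, and in 82 of 92 cells at 10 mpf. PCK1, the gluconeogenic enzyme phosphoenolpyruvate carboxykinase, was read in 10 cells at 4 mpf (619 reads against 0 and 0), 6 of them among the 16, and in 30 of 92 cells at 10 mpf. It was at least 85.8-fold higher than the nearer batch (adjusted p = 2.98e-10). In the second 4 mpf batch sorbs3 and pdlim2 were listed at 0 in all 46 cells. For comparison, prdx1 was read in 16 of the 16 cells and in 57 of the other 72.

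Few members of the large housekeeping groups lay outside both batches, where 13.4% of all genes tested lay above and 9.93% below. Of 84 cytosolic ribosomal protein genes tested 0 lay above and 1 below both 6 mpf batches, of 94 nuclear genes of the respiratory chain and ATP synthase 3 and 0, of 53 proteasome genes 2 and 1, and of 29 genes of ER translocation and signal peptidase 0 and 0. Their medians lay between -0.22 and 0.43 on the log2 scale. A read in all 3 batches was present for 84, 90, 47 and 29 of them in turn, against about 11970 of all 18726 genes. Whether their level of expression alone gives these low shares was not tested. Of 47 genes of sterol and lipid synthesis 9 lay below both batches, against 9.93% of all genes, among them LPIN1 (2.13, 22.9 and 17.1 CPM) and srebf2 (4.83, 10.8 and 16.7 CPM), and 1 above, cpt1ab, the gate of fatty-acid import into mitochondria (185.3, 67.5 and 60.4 CPM). None of these genes passed the test. In the TPM comparison 0 of 20 lay below in either 4 mpf batch, against 5.44% and 7.26% of all genes. In the first batch 1 lay above and in the second 5, against 5.31% and 4.27% of all genes. Of 38 clock genes 5 lay below, a share near that of all genes (9.93%), including per2 (53.5, 177.8 and 146.9 CPM) and nr1d2a (47.8, 102.4 and 111.1 CPM), and 2 above. The uncoupling protein gene ucp2 stood at 137.8, 185.7 and 378 CPM and vegfaa at 173.1, 221 and 179.2 CPM, neither outside both batches nor past the test (adjusted p = 1 for both).

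**Figure D4:**
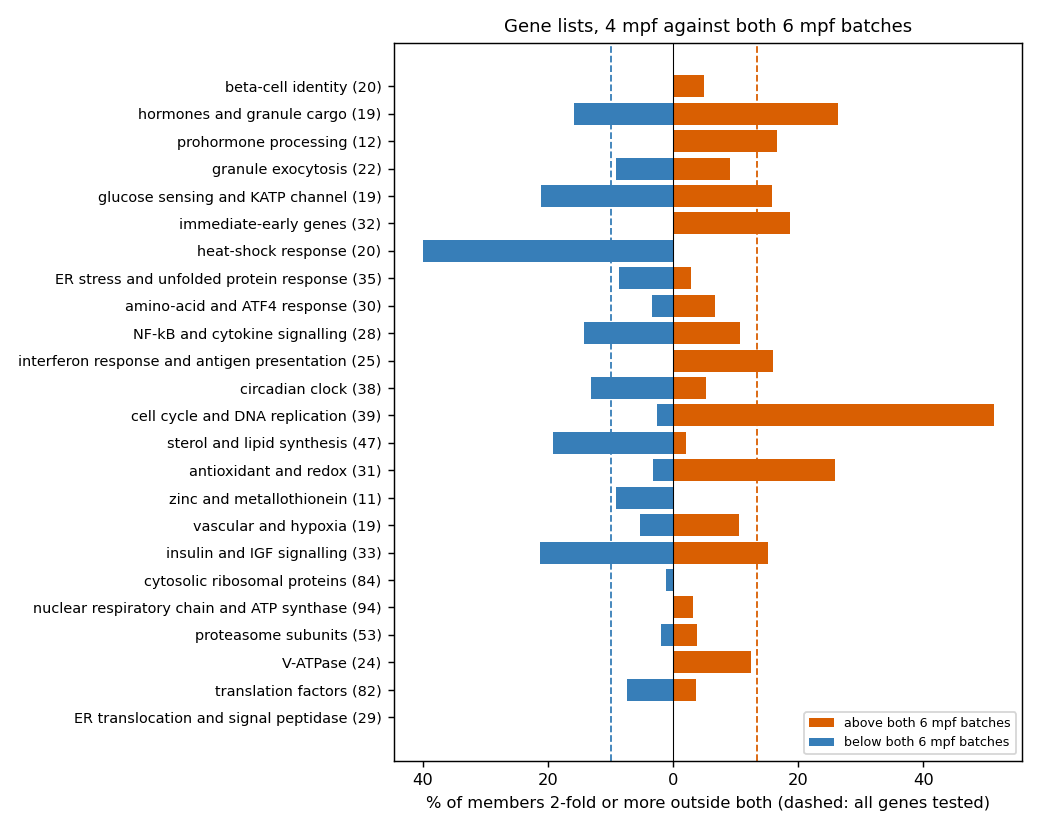
Share of the members of each gene list (number tested in brackets) that lie at least 2-fold above (orange, right) or below (blue, left) both 6 mpf batches; the dashed lines are the 13.4% and 9.93% of all genes tested. Heat-shock genes reach 40% below, cell-cycle genes 51.3% and antioxidant genes 25.8% above. The lists were chosen with earlier results of these data known, and the shares were not tested.

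The second 4 mpf batch allowed a comparison of 2 batches at each age, as log2(mean TPM + 1) in 5989 genes. Its values come from a table made separately from that of the other 3, so that differences between 4 mpf batches include those between tables. By limma 0 genes (0%) passed an adjusted p of 0.05, and 303 (5.06%) had an unadjusted p under 0.05. With 1 of the 4 mpf batches left out, limma called 18 genes (without the first) and 32 (without the second). The 2 4 mpf batches differed by at least 1 in 1631 genes (27.2%), and the 2 6 mpf batches in 1520 (25.4%). In 90 genes (1.5%) both 4 mpf batches lay at least 1 above both 6 mpf batches, and in 98 (1.64%) at least 1 below.

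Of these, 42 in each direction had at least 10 TPM and a read in at least 20% of cells in both batches of the higher age. The 15 with the widest gap each way, and fkbp5, are shown in the plot of the 4 batches. This rule was chosen after the values were seen, and no gene of the set passed adjustment (limma adjusted p = 0.908).

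The gene with the widest gap above was btc, for betacellulin, a ligand of the epidermal growth factor receptor. It averaged 165.2 and 134.2 TPM in the 4 mpf batches and 38.9 and 28.5 TPM at 6 mpf, with a read in 76 of 88 and 39 of 46 cells against 25 of 39 and 23 of 51. In the count table it stood at 264, 57.2 and 54.4 CPM (edgeR adjusted p = 0.131). Among the others CROT, a peroxisomal carnitine acyltransferase, averaged 22.5 and 26.2 against 6.81 and 6.04 TPM, and cpt1ab 50.96 and 45.3 against 18.4 and 17.1 TPM. The glycolytic mutase pgam1a averaged 41.9 and 33.1 against 5.96 and 12.3 TPM, and hspa13, an ER-associated member of the HSP70 family, 32.8 and 25.4 against 7.90 and 5.62 TPM. The kinase yes1 averaged 18.95 and 23.6 against 5.66 and 6.28 TPM.

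Below both 6 mpf batches, sst1.1 had the widest gap, followed by klf9, a Krüppel-like factor induced by thyroid and glucocorticoid hormones in vertebrates. It averaged 6.08 and 5.99 TPM at 4 mpf and 50.01 and 40.8 TPM at 6 mpf, with a read in 10 of 88 and 13 of 46 cells against 28 of 39 and 18 of 51. In 6 mpf batch 2 its highest cell stood at 851 TPM and its median at 0, so that the mean there rests in large part on 1 cell. The gene fkbp5 encodes a co-chaperone of steroid hormone receptors and was read in nearly every cell. It averaged 130 and 274 TPM at 4 mpf and 651 and 654 TPM at 6 mpf, and the lowest 6 mpf cells, at 277 and 192.06 TPM, lay above the median of 96.6 TPM in the first 4 mpf batch, while the second had a median of 228 TPM, above the lowest cell of 6 mpf batch 2. Its count-table levels of 422, 2520 and 2046 CPM did not pass the edgeR test (adjusted p = 0.555). Keratin krt15 averaged 15.9 and 11.6 against 82.3 and 80.9 TPM, cited4b, a transcriptional co-activator, 143.2 and 43.8 against 578 and 456 TPM, and otc, ornithine carbamoyltransferase, 8.17 and 9.24 against 84.4 and 43.03 TPM. Of the genes below, otc, TMEFF2, ZBTB16, fam107b, mtss1la and sst1.1 were also calls of the count test, with adjusted p = 0.0433 for otc and 0.00418 for TMEFF2. Both comparisons share the first 4 mpf batch and both 6 mpf batches, so this overlap is not independent support.

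**Figure D5:**
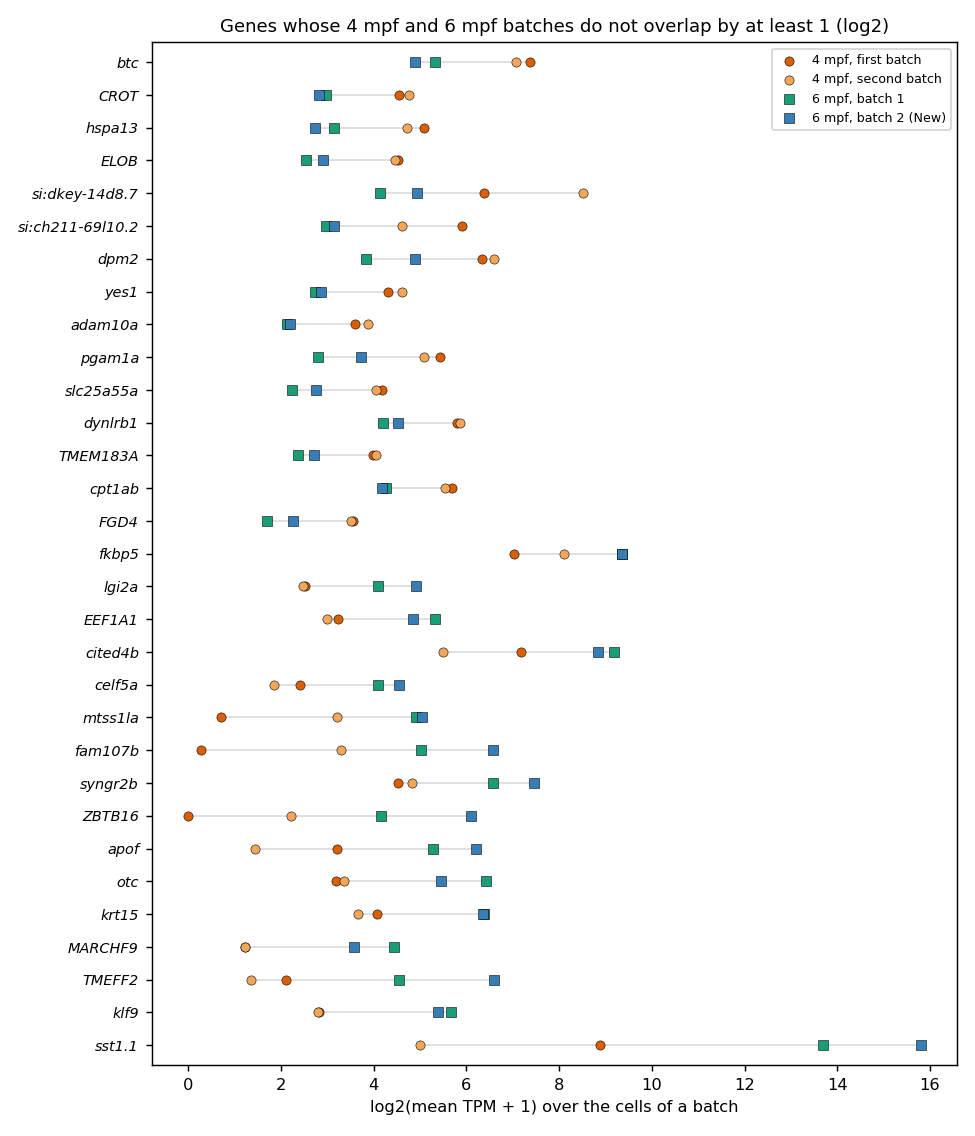
The 15 genes with the widest gap each way between both 4 mpf batches (circles) and both 6 mpf batches (squares), and fkbp5, with log2(mean TPM + 1) over the cells of a batch on the horizontal axis. The gap runs from btc, 1.76 above, to klf9 and sst1.1, 2.56 and 4.80 below, and for ZBTB16, fam107b and mtss1la the first 4 mpf batch lies well to the left of the second.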

How the data were processed

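Single beta-cells were sorted by the authors, amplified to full-length cDNA and sequenced. The reads were mapped with HISAT2 to the zebrafish genome build GRCz10 and assigned to genes with htseq-count (versions not given in the sources used here). The deposited values are raw counts per gene and cell for the training set, and TPM (reads scaled by gene length and then to a fixed total per cell) for that set and, in a table of its own, for the second 4 mpf batch. Counts were summed per batch of fish and tested with edgeR 4.0.16 (R 4.3.3, TMM scaling, quasi-likelihood test, Benjamini-Hochberg adjustment) over 9 batches with age as the factor. CPM are TMM-scaled; log2 CPM used a prior count of 2. TPM means per batch were tested as log2(TPM + 1) with limma 3.58.1 in the 5989 genes with at least 5 TPM in 2 batches. For the shares of cells with a read at equal depth, each cell was thinned to 100000 reads and shallower cells were left out. DESeq2 1.42.0 was an alternative. The SE printed with an edgeR log2 fold change was derived from the test statistic and is not a separate estimate of error. Nothing in the labels says that batches of one age differ only by fish, so p-values measure the spread between batches of one age. In the edgeR test that spread comes from the ages with 2 counted batches, and none of it from 4 mpf. Doublets were not called. Names were found for 26192 of 31916 gene IDs. Tested on data simulated from the batches' means and depths, the count test recovered 5.5% of 200 genes changed by 3 on the log2 scale among 17511, so most changes of that size would be missed. On other simulated data limma recovered 66% of changes of 5 among 12000. Levels and spread in that simulation were set by assumption and not taken from these batches. The 66% therefore does not give the power of the limma test on the 5989 genes here.

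Named genes were the 10 calls with the largest change in each direction, the 12 genes each way farthest outside both 6 mpf batches (beyond their spread, at least 10 CPM and a read in 20% of cells at the higher age), list members outside both at 10 CPM, and ins, ucp2, vegfaa, junba and fosab. The members and lists were chosen with earlier results of these data known. Other calls and list members within 2-fold or under 10 CPM, and the genes of the plot of the 4 batches, were chosen after their values were seen. A few genes that met these rules are not reported here.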

Additional observations from a re-analysis of the deposited data

How the results depend on the processing

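The count of 75 edgeR calls was 9 with only the 3 batches of 4 and 6 mpf, 37 with each gene capped at its second-highest cell and 253 with DESeq2, and ranged from 42 to 78 with a 6 mpf batch left out, which leaves 1 batch at each age whose spread is assumed to be that of other ages. It was 65 with RLE scaling, 85 with no filter, 77 with ins removed, and 19 higher and 90 lower in cells with at least 10% ins. Capping and the 10% limit were chosen after seeing the data. The 0 limma calls ranged from 0 to 32 with a batch left out and stayed 0 with a pseudocount of 0.1, no TPM minimum or means of cell log values. The 13.4% of genes above and 9.93% below both 6 mpf batches were 1.41% and 0.993% by mean log2(TPM + 1) over cells, 7.83% and 4.68% at 4-fold, 1.503% and 1.64% in TPM with both 4 mpf batches, and 23.96% to 26.2% and 20.3% to 22.6% against 1 6 mpf batch. Of the called genes 2 turned: ghrl was -5.45 in cells with at least 10% ins, and cd74a was -0.20 by mean log2(TPM + 1). Among named genes that were not called, sst2 (2.87) turned to -6.43, gcga to -1.04 and gcgb to -2.34 in cells with at least 10% ins, sst2 to -0.99 and ATP6V0A2 to -0.0050 by mean log2(TPM + 1), and the lower of the fosab genes to 0.51 without 6 mpf batch 2; the cause was not tested. Of 1143 pairs of named gene and alternative, 1039 kept direction and side of the threshold. These pairs include genes that were not called, which can keep their side without any call. Of the 75 calls themselves, 5 were called under every alternative. No paired analysis was possible because the ages are different fish and the numbers only name batches. With 1 counted batch at 4 mpf, batch and age cannot be told apart, and depth limits genes near 3 reads.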

Other observations

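The genes fkbp5 and klf9, both below 6 mpf in the 2 batches of 4 mpf, can be set beside the other ages. The level of fkbp5 was 422 CPM in the first 4 mpf batch, 2520 and 2046 CPM at 6 mpf, and between 454 and 1762 CPM in the 6 batches of other ages. Among the batches with counts, the 6 mpf batches were thus its highest and the first 4 mpf batch its lowest. The lowest level at another age, 454 CPM in the first 3 mpf batch, was close to it. The second 4 mpf batch has no counts and is not ranked, but averaged 274 TPM against 130 TPM in the first. For klf9 the 3 mpf batches, at 8.75 and 1.31 CPM, lay below the first 4 mpf batch at 10.3 CPM. The 6 mpf batches stood at 80.6 and 39.7 CPM, and the levels were 36.5 CPM at 1 mpf, 48.7 CPM at 10 mpf, 36.8 CPM at 12 mpf and 46.6 CPM at 14 mpf. These genes were chosen after their values were seen, and no test was made.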
